A study of Mus musculus with 24 samples.

Results

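The miRNA content of mouse liver after acetaminophen plus granulocyte colony-stimulating factor (G-CSF) was compared with that of untreated liver. The comparison used 4 of the 24 samples of the series and 2 of its 12 deposited columns, the 2 deepest. A hairpin entered with 100 or more counts in either column, which 233 of the 1186 hairpins of the table reached. The treated liver came from mice given acetaminophen at 500 mg/kg together with G-CSF at 100 µg/kg, and the control liver from untreated mice. No group received G-CSF alone or a vehicle. The sources used here do not state strain, sex, age, number of mice or time after dosing. Each condition had been run on 2 instruments, Ion Torrent PGM and Proton, whose reads the authors combined into 1 column, so no replicates remained. Every ratio below therefore compares 2 columns of libraries rather than 2 conditions, and its interval covers counting error only.

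Acetaminophen is a painkiller that, in overdose, is turned in hepatocytes into a reactive product that kills them, mainly around the central veins. G-CSF is a cytokine that drives the formation and release of neutrophils from bone marrow. A miRNA is cut from a hairpin precursor, and the seed, bases 2 to 8 of the mature strand, sets most of its pairing with target mRNAs. In liver, miR-122 marks hepatocytes, miR-451a and miR-144 mark red cells, and miR-223 marks neutrophils and other myeloid cells. In bulk tissue, fewer cells of a type and less RNA per cell cannot be told apart.

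The mature strands below carry the main differences, and their sequences are from RefSeq (GRCm38.p6), written 5′ to 3′ with the seed in capitals. The let-7 group is shown because its members share 1 seed but not 1 ratio.
let-7a-5p: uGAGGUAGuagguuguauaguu
let-7c-5p: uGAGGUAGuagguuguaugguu
let-7f-5p: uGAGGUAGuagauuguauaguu
let-7g-5p: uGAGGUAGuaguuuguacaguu
let-7i-5p: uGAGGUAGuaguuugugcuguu
miR-98-5p: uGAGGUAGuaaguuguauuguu

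The next strands are the abundant ones that were higher (miR-21a, miR-22, miR-223, miR-451a), followed by 1 that was lower (miR-194) and the 2 that are processed from the same transcripts as miR-194 (miR-192 and miR-215).
miR-21a-5p: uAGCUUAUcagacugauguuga
miR-22-3p: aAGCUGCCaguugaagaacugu
miR-223-3p: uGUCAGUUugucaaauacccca
miR-451a: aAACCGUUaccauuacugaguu
miR-194-5p: uGUAACAGcaacuccaugugga
miR-192-5p: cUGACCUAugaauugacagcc
miR-215-5p: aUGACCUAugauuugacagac

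The control column held 1307523 hairpin counts and the treated column 1095868. The 233 hairpins took 99.49% of the control counts and 99.51% of the treated counts. All 233 had a count in both columns, 204 had 100 or more in both, 15 entered through the treated column alone and 14 through the control column alone. Just outside the minimum lay mir-6516 (95 and 36 counts, control first) and mir-429 (64.3 and 96.2). Just inside it lay mir-5135 (101 and 3 counts) and mir-3473a (104 and 61.0). The tissue label fitted its markers: mir-122 was the most abundant hairpin in both columns. None of the 10 striated muscle, 5 pancreas and 12 neural hairpins of the table reached 100 counts in either column, and the largest summed share of these lists was 0.0136%.

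A hairpin was called higher or lower where its share of the column total differed 2-fold or more and the exact 95% interval of the ratio excluded 1. Of the 233 hairpins, 50 were higher with acetaminophen plus G-CSF (21.5%), 24 were lower (10.3%) and 159 were not called. Either call was made for 31.8%. The median log2 ratio was 0.08, and 112 hairpins stayed within 1.5-fold. The higher hairpins together took 5.41% of the control column and 18.9% of the treated column. The lower ones took 11.6% and 4.26%. Among hairpins with 100 or more counts in both columns, 37 were higher and 19 lower. Of the 15 that entered through the treated column alone, 13 were higher, a direction the minimum favours. Closest to the 2-fold threshold were mir-340 at 2.01 and mir-142 at 1.98 times control, and mir-140 at 0.498 and mir-203 at 0.509 times.

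The hepatocyte list (mir-122, mir-192, mir-194, mir-215, mir-148a and mir-802) took 16.5% of the control column and 9.94% of the treated column. Of its 7 hairpins, 2 were lower, 1 was higher and 4 were not called, with a median log2 ratio of -0.33. Over all 233 hairpins, 10.3% were lower and 21.5% higher. mir-122, which supports lipid metabolism and hepatocyte identity, had 125059 counts (9.57%) in control and 62321 (5.69%) in treated liver. That is 0.595 times control (95% interval 0.589 to 0.600), short of the threshold. Its fall in share, 3.88 percentage points, was the largest of all hairpins. Both copies of mir-194 were lower: mir-194-1 went from 19843 to 5532 counts, or 0.333 times control (0.323 to 0.343), and mir-194-2 from 20663 to 6036, or 0.349 times (0.339 to 0.359). No other member was called lower. mir-192 was at 0.793 times control, mir-215 at 0.803 (both not called) and mir-148a, which is abundant in hepatocytes, at 1.44. mir-802, a hairpin linked to glucose metabolism in liver, was higher, at 570 and 1038 counts, or 2.17 times control (1.96 to 2.41).

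Among blood cell hairpins, mir-451a, mir-144 and mir-223 were higher. On the erythroid list 3 of 4 hairpins were higher and none was lower, beside 21.5% and 10.3% of all 233 hairpins. Its summed share was 0.299% in control and 1.89% in treated liver. mir-451a, matured by Argonaute 2 without Dicer, had 1773 counts in control and 9954 in treated liver, 6.70 times control (6.37 to 7.05). The entry mir-451b lies on the opposite strand of the same 72 bases and had almost the same counts, so both represent 1 signal and the 3 higher entries are 2 signals. mir-144, from the same transcript as mir-451a, had 158 and 633 counts, a ratio of 4.79 (4.003 to 5.72). The fourth, mir-486, had 234 and 303 counts and was not called (1.54, 1.30 to 1.84). On the myeloid list 1 of the 2 measured hairpins was higher, too few to set against the 21.5% over all 233. mir-223, a regulator of granulocyte production, had 1169 and 4771 counts, 4.87 times control (4.57 to 5.20). mir-142, shared by all white cells, had 516 and 855 counts and missed the threshold at 1.98 (1.77 to 2.21); its mature strand miR-142a-3p had 15 and 13 counts, a ratio of 0.978 (0.428 to 2.204). How much blood each liver held was not tested.

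The lymphoid list held no higher hairpin. Of its 7 hairpins, 1 was lower, beside 10.3% of all 233, and the median log2 ratio was -0.41. mir-342, which lies in an intron of Evl and is abundant in lymphocytes and monocytes, had 17205 and 6646 counts, 0.461 times control (0.448 to 0.474). mir-150, the marker of mature B and T cells, was at 1.15 times control, and mir-155, induced in activated lymphocytes and macrophages, at 0.628 times. Hairpins of the remaining liver cells were mostly not called. The endothelial mir-126a was at 0.620 times control (30125 and 15656 counts). The 4 stellate cell hairpins lay between 0.748 and 0.866 times control, with none called. Of the smooth muscle pair, mir-143 was higher at 2.18 times control (2331 and 4263 counts) while mir-145a stood at 0.871. On the biliary and epithelial list 5 of 10 hairpins were measured: mir-31, at 3.21% and 3.06% of counts, was near equal, and mir-200a (2.09) and mir-141 (2.02) were higher from under 100 control counts each. These 2 share reads and appear to be 1 signal, and both lost the call under another scaling.

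**Figure D1:**
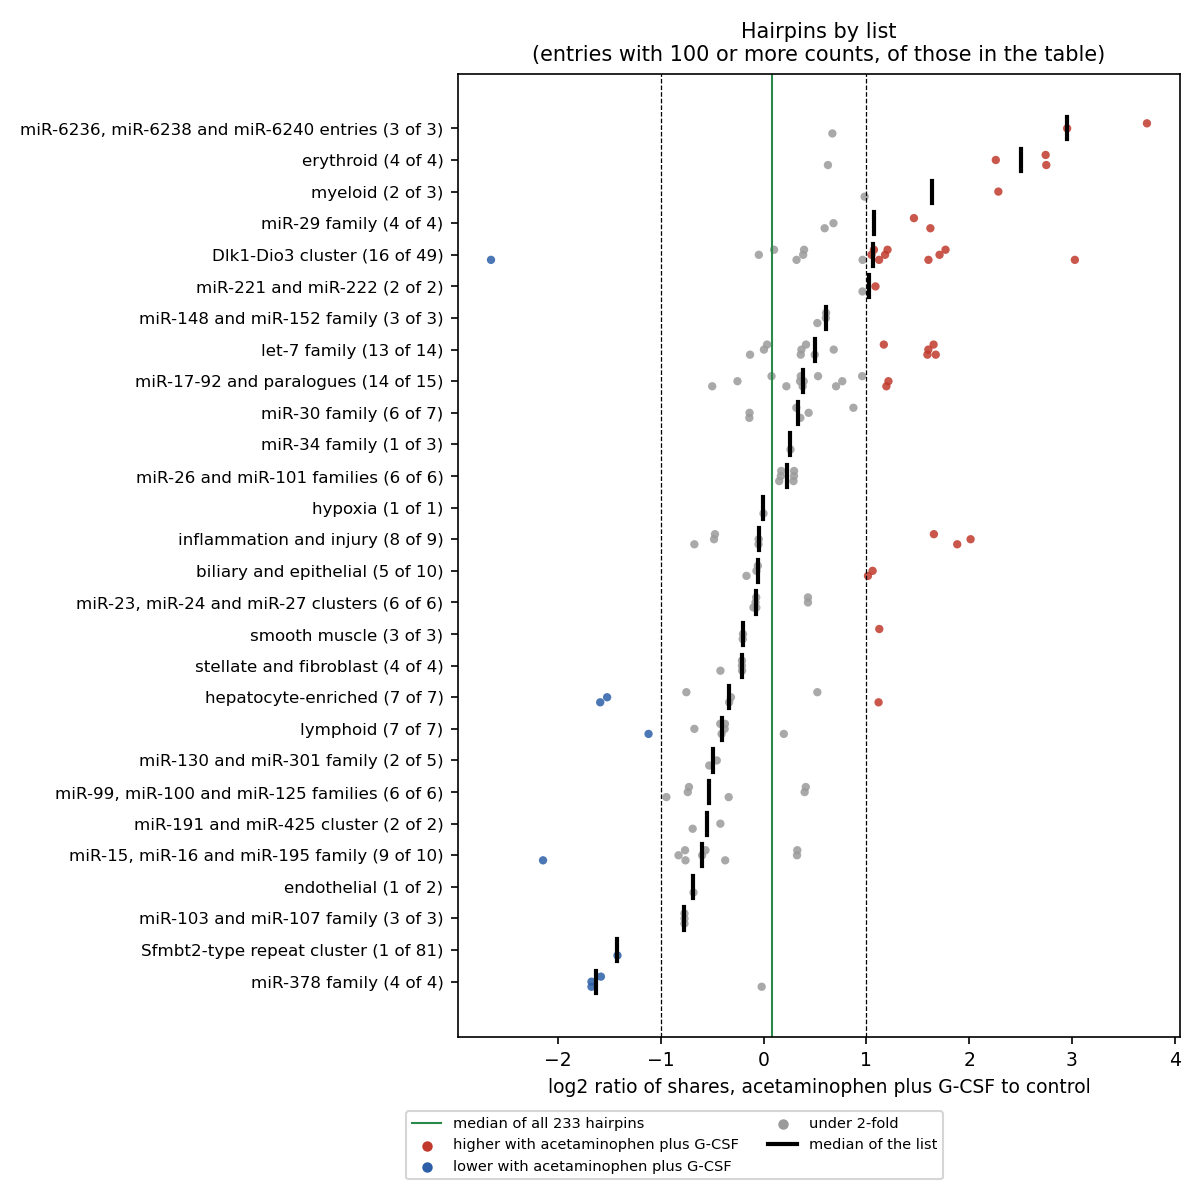
Log2 ratio of shares (x axis, acetaminophen plus G-CSF to control) for the hairpins of each list (y axis, with measured and listed numbers); points are hairpins, black bars list medians, the green line the median of all 233 and the dashed lines 2-fold. The list of miR-6236, miR-6238 and miR-6240 entries and the miR-378 list sit at opposite ends, with medians of 2.95 and -1.63. The erythroid list has a median of 2.50, and the Dlk1-Dio3 list holds both higher hairpins and mir-380 far to the left.

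Among hairpins known from inflammation and tissue injury, only the mir-21 entries passed the threshold. mir-21a, which lies at chr11:86584067-86584158 (GRCm38) in an exon of Vmp1 and is induced in many injured tissues, had 6097 counts in control and 18858 in treated liver, 3.69 times control (3.59 to 3.80). mir-21b was at 4.04 times control and mir-21c, which entered through the treated column alone, at 3.15. mir-3965, on chromosome 5, had counts within 10% of those of mir-21a in both columns but shared no run longer than 9 bases with it, and the reads it received were not examined. The other 5 measured members were not called, mir-146a at 0.717 and mir-155 at 0.628 among them. The list's median log2 ratio was -0.05 although 3 of its 8 measured hairpins were higher, beside 21.5% of all 233. mir-210, induced by low oxygen, had 321 and 269 counts, a ratio of 1.00 (0.847 to 1.18). mir-34a, a target of p53, was at 1.20 times control.

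mir-22 gained the largest share of all called hairpins. This hairpin, at chr11:75463716-75463810 in an exon of Mir22hg, is abundant in liver and muscle. It had 10887 counts (0.833%) in control and 28045 (2.56%) in treated liver, 3.07 times control (3.01 to 3.14). The mir-7 entries were higher: mir-7a-1 had 262 and 725 counts (3.30 times control) and mir-7b 208 and 608 (3.48 times). A further entry, mir-7a-2 (3.41 times), shares reads with mir-7b and its mature strand with mir-7a-1, so these entries may not be separate signals. Their mature strands had few counts, 5.5 and 21 for miR-7a-5p and 4.5 and 19 for miR-7b-5p. mir-222, often raised in dividing cells, was higher at 2.13 times control (2001 and 3566 counts), and its neighbour mir-221 missed the threshold at 1.95. On the list of miR-17-92 and its paralogues, a group linked to proliferation, 2 of 14 measured hairpins were higher, beside 21.5% of all 233. Both were mir-92a copies (2.32 and 2.29), which share reads and appear to be 1 signal.

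The let-7 family, which restrains growth genes and is abundant in adult tissue, took 12.1% of the control column and 19.1% of the treated column. Of its 13 measured hairpins 5 were higher and none lower, beside 21.5% and 10.3% of all 233 hairpins. The median log2 ratio was 0.50. The called ones were a subset. let-7f-1 had 3879 and 10229 counts, 3.15 times control (3.03 to 3.27), and let-7f-2 stood at 3.19. These 2 copies share their mature strand and reads, and appear to be 1 signal. let-7g had 5559 and 14065 counts, 3.02 times control (2.93 to 3.12), and let-7i stood at 3.04. mir-98 was higher at 2.25 times control (121 and 228 counts). The rest of the family lay from 0.913 times control for let-7b to 1.61 for let-7a-1, the most abundant member with 34090 and 45864 counts. Counts of let-7g and let-7i were nearly equal in each column and the hairpins share a run of 19 bases, so they appear to hold 1 set of divided reads and not 2 signals.

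In the sequences given above, counted from 1 at the 5′ end with the base of let-7a first, let-7f differs by G12A, let-7g by G12U and U18C, and let-7i by G12U, A17G, U18C and A19U. miR-98 differs by G11A and A19U, and let-7c, at 1.29 times control, by A19G alone. The called members thus all differ from let-7a at position 11 or 12, and let-7b, let-7c, let-7d and let-7e do not. This was seen after the values were known. In the mature table let-7f-5p was at 2.09 (1.88 to 2.31), let-7g-5p at 2.91, let-7i-5p at 2.88 and miR-98-5p at 3.67 times control. miR-98-5p had 268 treated counts, more than its hairpin, although that column held 25.1 hairpin counts per mature count. How many of these were divided reads of other members was not tested. let-7a-5p stood at 1.73, let-7b-5p at 1.38, let-7d-5p at 1.78 and let-7e-5p at 1.68. In both tables the called members lay above the others, but their own order differed: let-7f was the highest of them among hairpins and the lowest among mature strands.

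The miR-29 family, whose targets include collagens, also split. mir-29b-1 had 1289 and 2978 counts (2.76 times control, 2.58 to 2.95) and mir-29b-2 had 907 and 2341 (3.08 times, 2.85 to 3.33). mir-29a and mir-29c, which share the seed and were more abundant, stood at 1.51 and 1.60 times control. None of the miR-30 (6 measured), miR-148 and miR-152 (3), miR-26 and miR-101 (6) or miR-23, miR-24 and miR-27 (6) hairpins was called, and their ratios ran from 0.909 to 1.83.

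The miR-378 family had the lowest median of the families. The host gene of mir-378a, Ppargc1b, is a regulator of mitochondrial metabolism. mir-378a had 19642 counts (1.502%) in control and 5502 (0.502%) in treated liver, 0.334 times control (0.324 to 0.344). mir-378b and mir-378c had nearly the same counts in each column and ratios of 0.314, and the 3 appear to be 1 signal. mir-378d, with 674 and 558 counts, stood at 0.988. The family of miR-15, miR-16 and miR-195, which restrains the cell cycle, had a median log2 ratio of -0.60, but only mir-195b was lower (955 and 181 counts, 0.226 times control, 0.192 to 0.265). Its mature strand, with 26.5 and 13.8 counts, stood at 0.589 (0.293 to 1.21) and was not called. The 3 hairpins of the miR-103 and miR-107 family, linked to insulin sensitivity, all stood at 0.587 times control with shared reads. mir-191, the next most abundant after mir-122 in control, had 46050 and 23944 counts, 0.620 times control. mir-140, from the Wwp2 gene, was lower at 0.498 (0.484 to 0.512) with 17697 and 7384 counts, its interval crossing the threshold. mir-324 (0.341), mir-320 (0.413) and mir-744 (0.453) were also lower, each from 1497 or more control counts. Their mature strands did not all follow: miR-324-5p stood at 0.909 (0.557 to 1.47) and miR-320-3p at 0.824 (0.482 to 1.39), neither called.

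Several of the largest ratios belonged to entries with little liver biology attached. mir-5126, whose 22-base mature strand is made of G and C only, had 4.33 and 540 counts, 149 times control (62.6 to 593). That mature strand did not reach 10 counts in either column, so the ratio has no mature value beside it. mir-2137, in an intron of Zfp185, had 261 and 2285 counts (10.5 times, 9.19 to 11.9). mir-6236 had 588 and 6535 counts (13.3 times, 12.2 to 14.5) and mir-6240 had 435 and 2823 (7.74 times), while mir-6238 of the same list, at 93 and 124 counts, was not called. The mature strand miR-6240 had 1 and 92 counts, a ratio of 104 (18.2 to 4146) that did not hold the hairpin value. Downwards, mir-6481 had 3318 and 957 counts (0.344 times). Its hairpin shares a run of 20 or more bases with mt-Tf, the mitochondrial phenylalanine tRNA gene. A run of that length is also shared by mir-6240 with 3 annotated genes, by mir-5126 with Nova2 and by mir-574 (lower, 0.451) with 50, while mir-2137 shared none. mir-6236 had no matched sequence and was not examined for such runs. Which of these counts came from such other transcripts was not tested. mir-5135 fell from 101 to 3 counts, a ratio of 0.0355 with an interval of 0.00719 to 0.107.

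The imprinted Dlk1-Dio3 cluster on chromosome 12, active in embryonic tissue, held hairpins called in both directions. 16 of its 49 listed entries were measured, 9 of them higher and 1 lower. Of these 16, 8 entered through the treated column alone, and 7 of those were higher, a direction the minimum favours. Of the other 8, 2 were higher, beside 21.5% of all 233 hairpins. mir-376b had 24.5 and 168 counts (8.16 times control, 5.43 to 13.4), mir-329 had 44 and 126 (3.41) and mir-127 had 100 and 177 (2.11). mir-380, at chr12:109711803-109711863 within the same cluster, went from 2643 to 353 counts, 0.159 times control (0.142 to 0.178). mir-380 was the most abundant member in control, and the summed share of the cluster was 0.376% in control and 0.351% in treated liver. Its mature strand miR-380-5p was also lower, at 45 and 12 counts (0.301, 0.145 to 0.579).

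Hairpins that lie together on a chromosome are often cut from 1 transcript. Pairs were sought among the 194 measured hairpins with a matched locus, so pairs with an unmatched one, such as mir-143 or mir-145a, are missing. Of 79 such pairs within 10000 bases on the same strand, 55 had ratios within 2-fold of each other and 24 did not. Some of the 55, such as mir-181a-1 with mir-181b-1 and mir-19a with mir-19b-1, share reads and appear to be 1 signal. How often hairpins that lie apart come within 2-fold was not tested. Both were higher in 12 pairs, 10 of them within the Dlk1-Dio3 cluster, none had both lower, and the 3 pairs with opposite calls all contained mir-380. Of the 9 higher hairpins of that cluster, 7 entered through the treated column alone, a direction the minimum favours. Hairpins such as mir-494 also stand in several of these pairs. mir-144 and mir-451a, 99 bases apart on chromosome 11, were both higher. mir-194-2 and mir-192, 115 bases apart at chr19:6264643-6264728 and chr19:6264844-6264932, stood at 0.349 and 0.793 times control, a 2.28-fold gap. mir-194-1 and mir-215, 195 bases apart on chromosome 1, stood at 0.333 and 0.803. Since mir-194-1 and mir-194-2 share their mature strand, the mir-194 side of both pairs is 1 signal. On the other side, miR-215-5p differs from miR-192-5p by C1A, A12U and C20A only. Whether those 2 strands hold divided reads was not tested, so the second pair may not be separate from the first. On chromosome 13 let-7d, let-7f-1 and let-7a-1 stood at 1.33, 3.15 and 1.61 times control. On chromosome 3 mir-15b and mir-16-2, 66 bases apart, stood at 1.26 and 0.591.

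**Figure D2:**
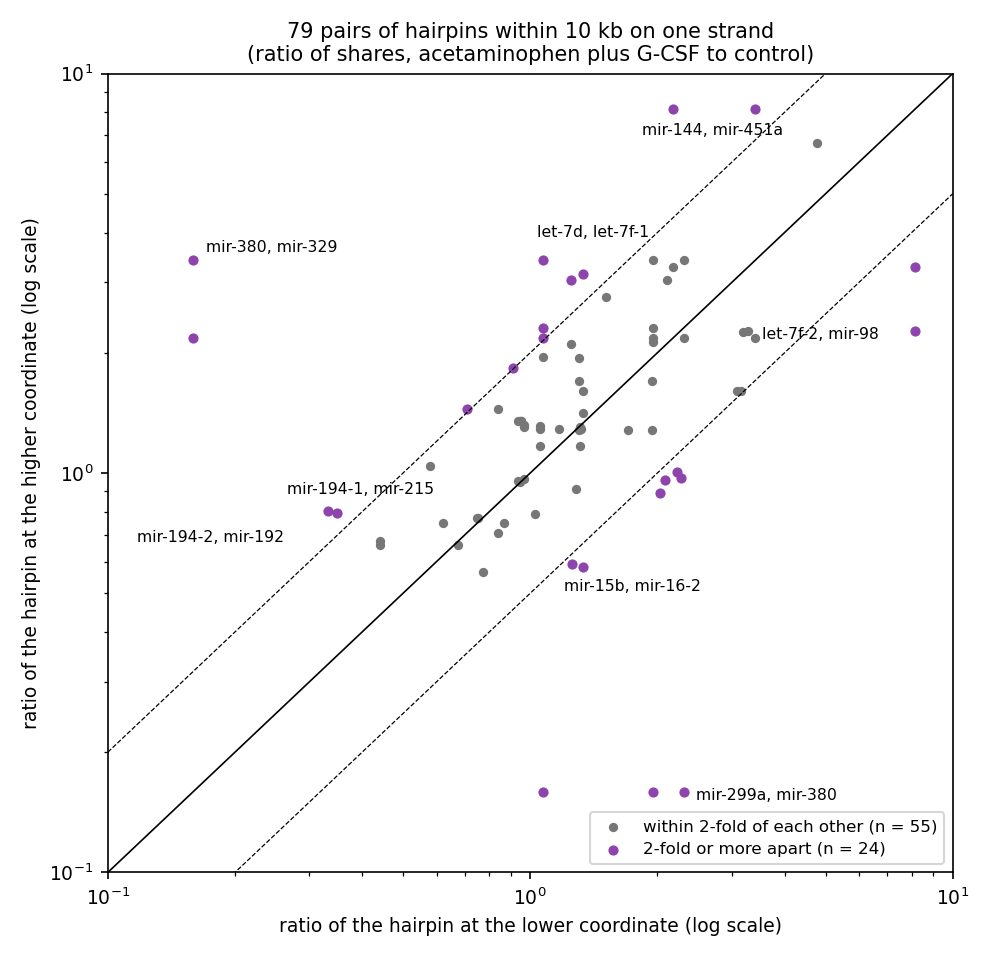
Ratio of shares (acetaminophen plus G-CSF to control, log scales) for the 79 pairs of hairpins within 10 kb on 1 strand, the hairpin at the lower coordinate on the x axis and the other on the y axis; the solid line is equality and the dashed lines mark 2-fold between both. Purple points are the 24 pairs 2-fold or more apart, which include both mir-194 pairs and the pairs with mir-380.

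The mature table was shallower, with 49330 counts in control and 43699 in treated liver. It is drawn from the same reads and is a check of the counting only. Of 171 mature miRNAs with 10 or more counts in either column, 29 were higher (17.0%) and 15 lower (8.77%), 25.7% in all. With TMM scaling, which shifted all log2 ratios by -0.14, the split was 27 higher and 22 lower. Of the 74 called hairpins 45 had a measured mature strand, and all 45 lay on the same side of 1. Of these, 35 were also called the same way and 10 were not called, and in 12 the mature interval did not hold the hairpin ratio. miR-22-3p had 338 and 981 counts (3.28 times control), miR-21a-5p 290 and 942 (3.67), miR-223-3p 29 and 142 (5.52) and miR-451a 87 and 458 (5.94). miR-194-5p had 1220 and 466 counts (0.432 times, 0.387 to 0.480) and miR-378a-3p 553 and 162 (0.331). miR-342-3p (0.501) and miR-140-3p (0.560) fell short of the call, as did miR-802-5p (1.60, 0.720 to 3.67) and the strands of mir-195b, mir-320 and mir-324 given above.

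**Figure D3:**
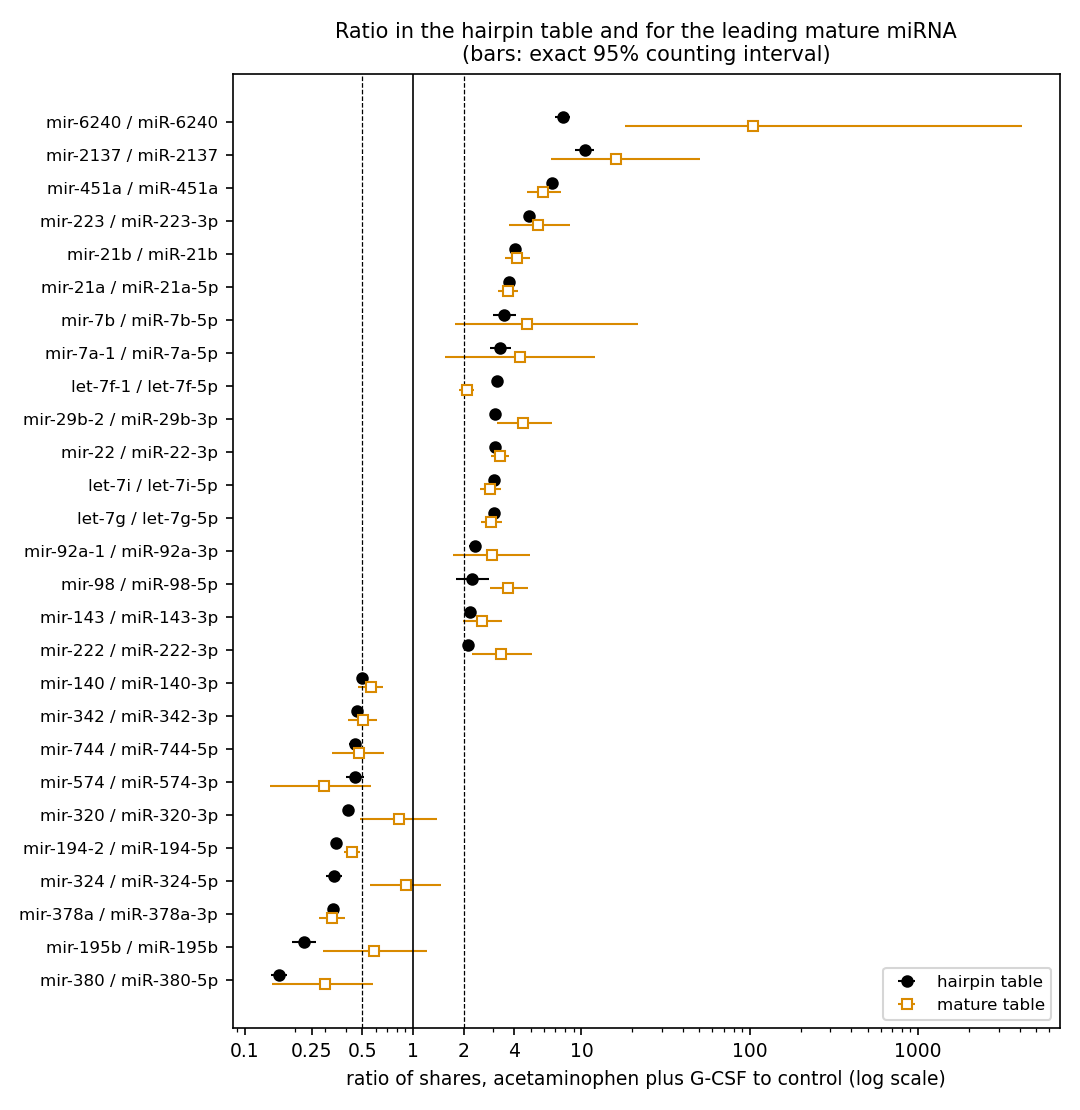
Ratio of shares (x axis, acetaminophen plus G-CSF to control, log scale) in the hairpin table (black) and for the leading mature strand (orange) of called hairpins (y axis); bars are exact 95% counting intervals and dashed lines mark 2-fold. Both values lie on the same side of 1 for every hairpin shown, and the widest interval belongs to miR-6240, with 1 control count.

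Both arms could be compared for 18 hairpins, and in 4 of them the intervals of the arms did not overlap. miR-122-5p, the main arm, had 11657 and 5543 counts, 0.537 times control (0.520 to 0.554). Its rare partner miR-122-3p had 6 and 30.5 counts, 5.74 times (2.31 to 16.6). Both arms of miR-22 were higher, at 3.90 for 5p and 3.28 for 3p. Among the 24 seeds with several measured members only ACCCGUA had members called both ways: miR-99a-5p (2.35) and miR-100-5p (2.43) were higher and miR-99b-5p (0.354) was lower. In the hairpin table mir-99a and mir-100, at 1.32 and 1.33, and mir-99b, at 0.520, were not called.

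Base composition differed between the called sets. With entries that share reads taken once, the leading mature strand had a median GC content of 40.9% over 32 higher signals, 54.5% over 15 lower ones and 47.7% over 98 not called. Across these 145 signals of the same 2 columns, Spearman's rho between log2 ratio and GC was -0.37 and Pearson's r -0.03. The strands of mir-5126 (100% GC) and mir-2137 (85.7%), which were among the highest hairpin ratios, ran against that order. miR-5126 itself had under 10 mature counts in each column. The part of base composition in the ratios was not tested.

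The liver given acetaminophen without G-CSF and the cultured hepatocytes are set beside these values without a test, since the liver columns share their control. The acetaminophen liver column held 111316 hairpin counts, with 5.65 hairpin counts per mature count against 26.5 and 25.1 in the compared columns. In it mir-122 took 15.6%, mir-451a 4.82%, mir-223 0.489%, mir-21a 1.69%, mir-22 0.939%, mir-378a 0.528% and mir-194-1 0.614% of counts. mir-22 and let-7f-1 (0.481% there) had their highest liver share in the column with G-CSF. mir-451a, mir-223 and mir-122 had theirs in the column without it.

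Hepatocytes were given 20 mM acetaminophen with 1 µg/ml G-CSF. Against their own control, 115 of 153 measured hairpins were called (75.2%), 41 higher (26.8%) and 74 lower (48.4%). Of the 50 hairpins higher in liver, 10 were higher in hepatocytes, 15 lower, 4 not called and 21 not measured. Of the 24 lower in liver, 9 were higher, 4 lower, 3 not called and 8 not measured. The blood hairpins were nearly missing from the cultures: mir-451a had 6 counts in control hepatocytes and 1.5 with both agents, and mir-223 had 34 and 14. mir-194-1 was lower there too, at 0.301 times control. mir-22 and mir-2137 were higher, at 2.14 and 42.1 times.

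**Figure D4:**
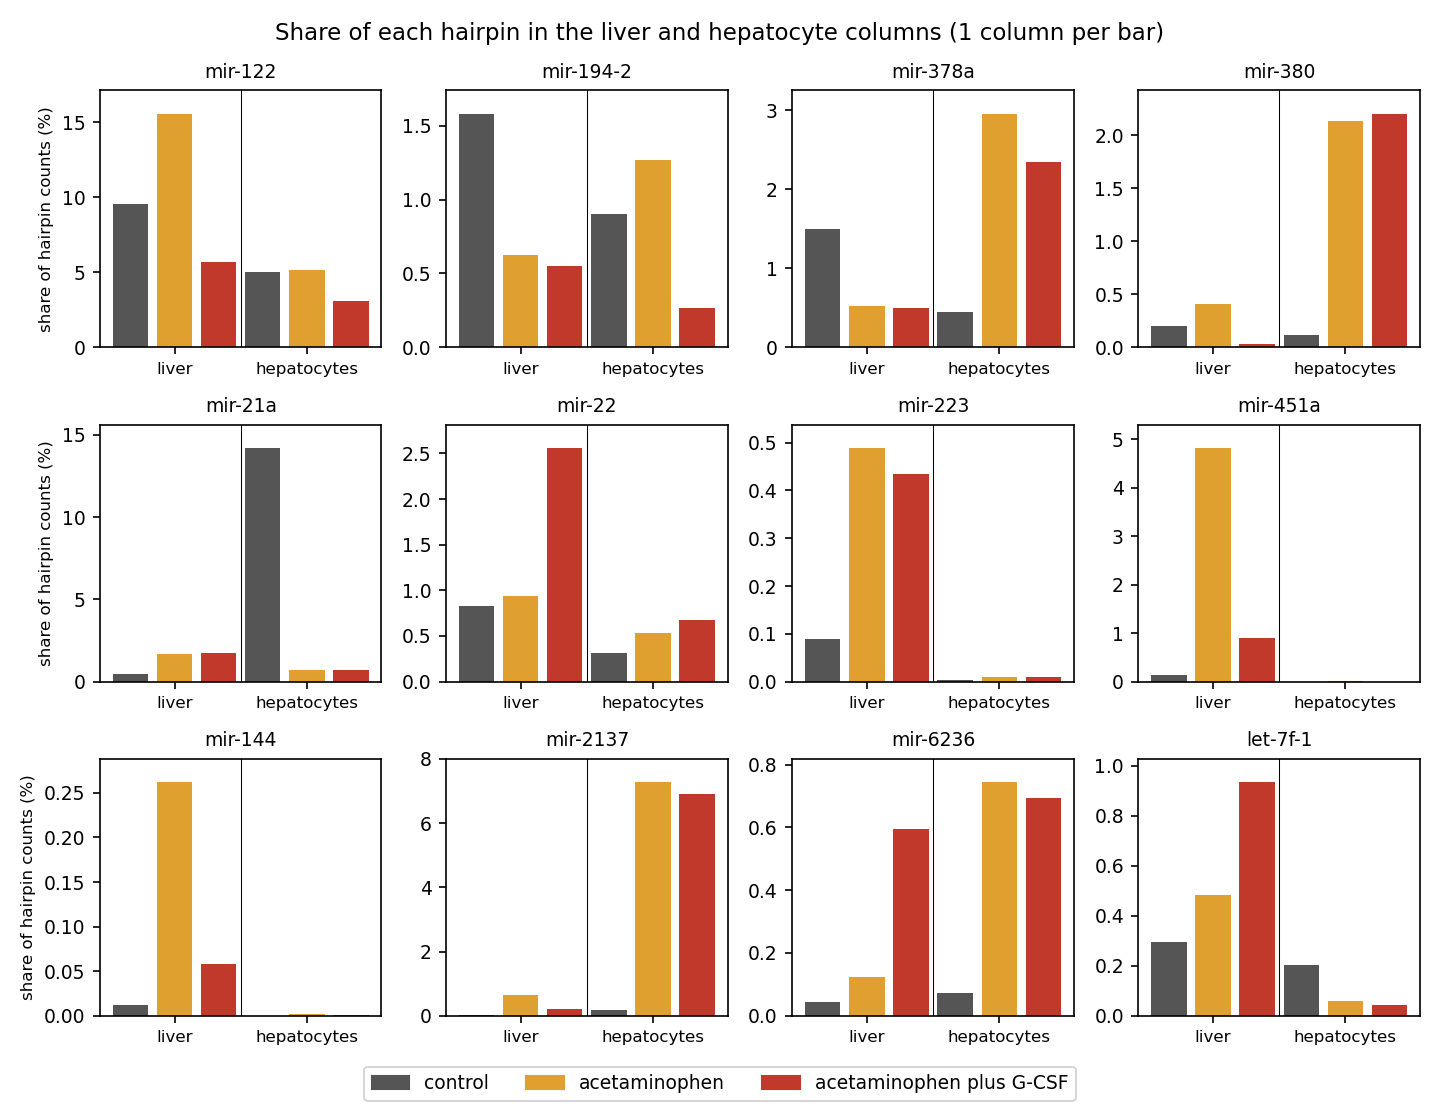
Share of hairpin counts (y axis, %, each panel with its own scale from 0) of 12 hairpins in the 3 liver and 3 hepatocyte columns; each bar is 1 column without replicates. mir-451a and mir-223 are near 0 in every hepatocyte column, and mir-380 takes 0.0322% in liver given both agents and 0.410% in liver given acetaminophen alone. The mature strand miR-380-5p had 0 of 19695 mature counts in liver given acetaminophen alone, so its hairpin share there has no mature counts behind it.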

How the data were processed

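The deposited values are expected counts per miRNA, 1 table of hairpins and 1 of mature strands, not scaled to depth, per the file headers. The authors combined the PGM and Proton reads of a condition into 1 column, per the file headers. Aligner, miRNA release and build were not given in the sources used here. Of the 233 hairpins, 20.2% (control) and 19.7% (treated) had whole counts within 0.001, so most counts hold divided reads.

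Counts were divided by the column total. Ratios carry exact conditional (Clopper-Pearson) 95% intervals on rounded counts, and a count of 0 was set against a floor of 3 counts. Without replicates no count model could be fitted, and no p-value is given. Scaling alternatives used edgeR 4.0.16 (TMM) and DESeq2 1.42.0 size factors in R 4.3.3; the ratio script was tested on simulated data. Sequences and loci are from RefSeq (GRCm38.p6), which matched 194 of the 233 hairpins and 150 of the 171 mature miRNAs, and overlapping genes from GENCODE. Entries were taken to share reads where their counts agreed within 10% in both columns and they shared 12 or more bases on either strand or the number in their name. Counted once, these left 191 signals, 41 higher and 21 lower.

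Named hairpins were the 12 most abundant names, up to 12 per direction with the largest fold among those called with 500 or more counts in 1 column, the 6 per direction with the largest difference in share, and list members; mir-340, mir-203, mir-7a-1, mir-574, mir-744, mir-5135, mir-140 and the hairpins beside the count minimum were chosen after their values were seen. Members and lists were chosen with earlier results of these data known.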

Additional observations from a re-analysis of the deposited data

Results flagged for a closer look

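For 24 hairpins the call in liver and the call in cultured hepatocytes given both agents, each against its own control, pointed in opposite directions. Of all 153 hairpins measured in hepatocytes, 26.8% were higher and 48.4% lower, so opposite calls were common there. Several of the 24 share reads and are not separate signals, such as mir-378a, mir-378b and mir-378c. The difference was not tested, since each side is 1 column.

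Hairpins higher in liver and lower in hepatocytes had these hepatocyte ratios. mir-21a stood at 0.0515 times control in hepatocytes, where it took 14.2% of the control column, mir-21b at 0.0307, mir-21c at 0.0268 and mir-3965 at 0.0516. mir-7a-1 stood at 0.0379, mir-7a-2 at 0.0185, mir-7b at 0.0192, mir-222 at 0.0743 and mir-350 at 0.252. let-7f-1 stood at 0.214, let-7f-2 at 0.180, let-7g at 0.462, let-7i at 0.469, mir-3962 at 0.468 and mir-29b-2 at 0.477.

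Hairpins lower in liver and higher in hepatocytes were led by mir-380, at 18.3 times control in hepatocytes, and mir-6481, at 15.2. mir-878 stood at 7.77, mir-378a at 5.25, mir-378b at 5.42, mir-378c at 5.42, mir-320 at 2.62, mir-669e at 2.61 and mir-574 at 2.52.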

How the results depend on the processing

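No paired analysis was possible because each group is 1 combined column. The count of 50 higher hairpins became 95 with a minimum of 10 counts, 29 with 500, 105 with none, 28 at 3-fold and 29 in the mature table. The count of 24 lower ones became 89 with a minimum of 10, 102 with none, 55 at 1.5-fold, 7 at 3-fold and 15 in the mature table. The share of calls that were higher, 67.6%, was 51.6% with a minimum of 10 counts, 50.7% with none, 54.5% at 1.5-fold and 80% at 3-fold. In the mature table it was 65.9%, and 55.1% with TMM scaling. The fewer or more entries tested and the fold itself set these counts. Of the 233 hairpins under 4 alternatives (TMM, DESeq2 size factors, the total without mir-122, copies summed) no call reversed, though 5 uncalled hairpins near a ratio of 1 (let-7e, let-7k, mir-365-1, mir-365-2 and mir-532) crossed it under a scaling; 5 lost their call under 1 or more scalings (mir-127, mir-141, mir-200a, mir-299b and mir-340) and 4 gained one (mir-203, mir-330, mir-455 and mir-99b). The medians of 28 lists moved by over 0.1 in 2 of 112 cases, both with copies summed: the miR-29 list to 0.68 and that of miR-99, miR-100 and miR-125 to -0.34. Shares of 2 columns cannot show absolute amounts, and no alternative stands in for replicate animals.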
